A study of Saccharomyces cerevisiae with 6 samples.

Results

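The hexose permease genes HXT1 to HXT7, the glucose sensor genes SNF3 and RGT2 and the corepressor gene MTH1 of the budding yeast Saccharomyces cerevisiae were followed in 3 groups of cultures. These 10 genes were taken by name from the 7064 gene models of the deposited annotation. Each stood alone in its locus of the count table, and all 10 passed the filter on low counts, as did 6171 of 6931 loci. RNA was sequenced from 6 samples of strain W303, a laboratory background. The first group lacked PDR3 and carried GAL-PSD1, the mitochondrial phosphatidylserine decarboxylase gene under a GAL promoter on a 2µ plasmid (pdr3Δ GAL-PSD1, 2 libraries). The second carried the same plasmid construct with PDR3 present (GAL-PSD1, 2 libraries). The third was wild type (WT, 2 libraries), for which the labels name no plasmid. PDR3 codes for a zinc cluster activator of genes for drug resistance. All groups grew in 1% yeast extract and 2% peptone with 2% raffinose as the sugar. The labels give 2% galactose for 4 h to every sample, marked plus or minus without saying which samples received it. They also leave out whether libraries of 1 group were grown as independent cultures, so the p-values reflect variation between these libraries, which may be technical.

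Hexoses enter yeast by facilitated diffusion through the Hxt permeases, which differ in affinity. Hxt1 and Hxt3 have low affinity, Hxt2 and Hxt4 intermediate to high affinity, and Hxt6 and Hxt7 high affinity, while Hxt5 is known from slow growth and stress. Snf3 and Rgt2 are permease-like proteins that sense low and high external glucose without carrying it. Without a glucose signal, Mth1 and its paralog Std1 hold the repressor Rgt1 on HXT promoters. The sensors cause both to be degraded through casein kinase I (Yck1 and Yck2) and the ubiquitin ligase subunit Grr1. Separately, the repressor Mig1, opposed by the kinase Snf1, acts on genes for high-affinity uptake and other sugars.

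Libraries held 10220872 to 12315448 counts. PSD1 had 113102 and 104079 counts in pdr3Δ GAL-PSD1, 164424 and 168240 in GAL-PSD1, and 17202 and 16158 in WT. PDR3 had 3 and 9 counts in pdr3Δ GAL-PSD1, 2283 and 2245 in GAL-PSD1, and 724 and 798 in WT, so both genes matched the labels. PSD1 itself was lower in pdr3Δ GAL-PSD1 than in GAL-PSD1 (log2 fold change -0.75 ± 0.09 SE, edgeR adjusted p = 0.000668). The galactokinase gene GAL1 had 101214 and 92225 counts in pdr3Δ GAL-PSD1, 72738 and 61306 in GAL-PSD1, and 484 and 230 in WT. PSD1, the plasmid and galactose induction therefore changed together in every comparison with WT and cannot be told apart there. Between the 2 GAL-PSD1 strains, the lower PSD1 level moved with the loss of PDR3, and its part in the results was not tested.

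In GAL-PSD1 against WT, 5 of the 10 genes were higher (HXT3, HXT4, HXT5, MTH1 and RGT2), 3 were lower (HXT2, HXT7 and SNF3), and HXT1 and HXT6 did not pass the test. The test was edgeR's quasi-likelihood test on counts over all loci, and a gene was called at a Benjamini-Hochberg adjusted p under 0.05. Of all tested loci, 55.8% were called in this comparison, with 27.9% higher and 27.9% lower, against 8 of the 10 genes here. The members' absolute log2 changes had a median of 0.71, against 0.24 over all loci, and their signed median was 0.15, against 0.01 over all loci. In pdr3Δ GAL-PSD1 against GAL-PSD1, 4 of 10 were called, all lower (HXT3, HXT4, HXT2 and HXT7), where 20.9% of loci were called, with 11.8% of all loci higher and 9.12% lower. In pdr3Δ GAL-PSD1 against WT, 2 were higher (HXT5 and MTH1) and 3 were lower (HXT2, HXT7 and HXT4), where 39.1% of loci were called, with 19.6% of all loci higher and 19.5% lower. These comparisons share libraries in pairs, so a gene that stands out in GAL-PSD1 alone gives opposite signs in the first 2 of them. In bulk RNA, a change in level per cell and a change in the share of cells that express a gene cannot be told apart.

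**Figure D1:**
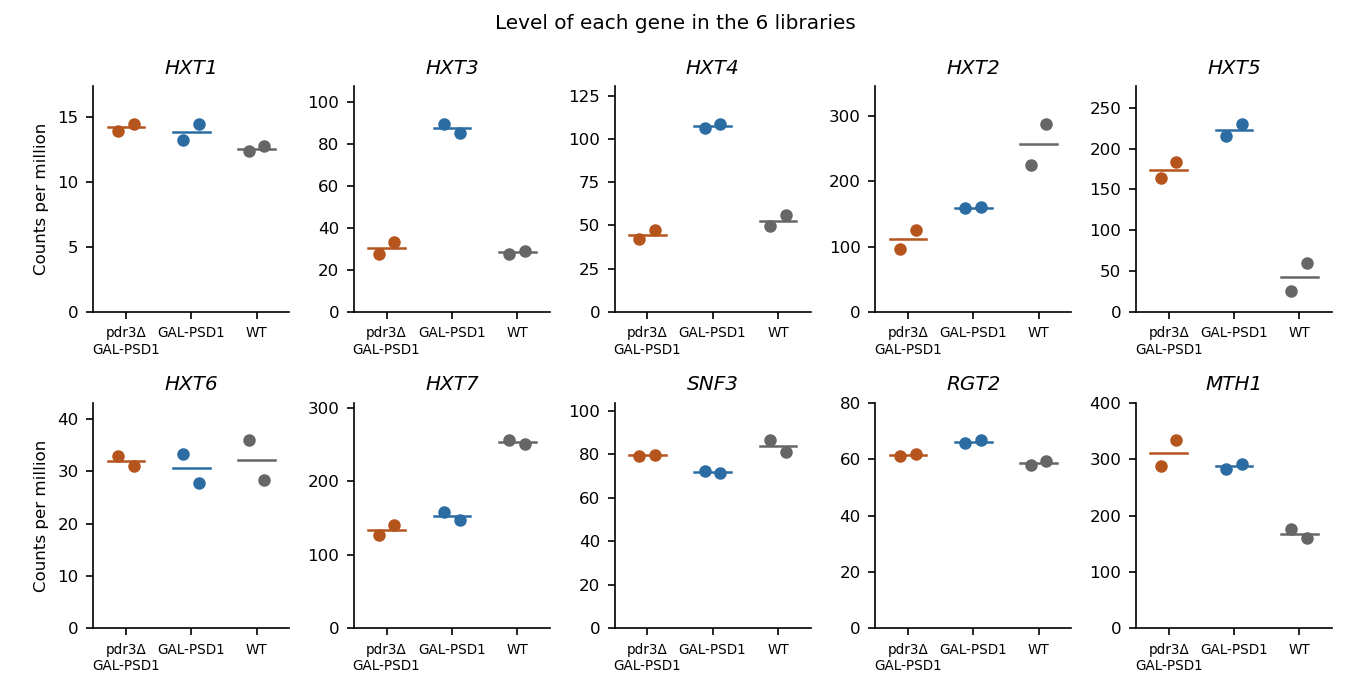
Counts scaled to library size (CPM, y axis from 0, 1 panel per gene) in each of the 6 libraries, as points, with the mean of the 2 libraries of each group as a line. HXT3 and HXT4 are high in GAL-PSD1 only among the 3 groups, HXT5 and MTH1 are high in both GAL-PSD1 strains, HXT2 and HXT7 are highest in WT, and HXT1, HXT6, SNF3 and RGT2 differ little.

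Among the low-affinity permeases, HXT3 moved most. Levels in single libraries are given in CPM, the counts scaled to the TMM-adjusted library size. HXT3 (YDR345C, chromosome IV, 1162957 to 1164660, minus strand, R64 build) had 27.4 and 33.1 CPM in pdr3Δ GAL-PSD1, 89.7 and 85.5 CPM in GAL-PSD1, and 27.7 and 29.1 CPM in WT. Both GAL-PSD1 libraries lay far above the other 4, while the pdr3Δ GAL-PSD1 and WT libraries overlapped. HXT3 was 3.08-fold higher in GAL-PSD1 than in WT (log2 1.62 ± 0.09 SE, edgeR adjusted p = 2.55e-07). With PDR3 deleted it was 2.90-fold lower than in GAL-PSD1 (-1.53 ± 0.09, adjusted p = 3.39e-06) and stood at rank 15 of 6171 loci by p-value. Between pdr3Δ GAL-PSD1 and WT it did not pass the test (0.09 ± 0.10, 95% interval -0.13 to 0.30, adjusted p = 0.509). The interval leaves room for a small difference in either direction.

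HXT4 (YHR092C, chromosome VIII, 287081 to 288811, minus strand), a permease of intermediate to high affinity, was likewise highest in GAL-PSD1, with pdr3Δ GAL-PSD1 lowest. It had 41.9 and 47.1 CPM in pdr3Δ GAL-PSD1, 106.5 and 108.9 CPM in GAL-PSD1, and 49.7 and 55.8 CPM in WT. No libraries overlapped between groups. HXT4 was 2.04-fold higher in GAL-PSD1 than in WT (1.03 ± 0.07, edgeR adjusted p = 1.47e-06) and 2.42-fold lower in pdr3Δ GAL-PSD1 than in GAL-PSD1 (-1.28 ± 0.07, adjusted p = 5.29e-06), at rank 16 by p-value. It was also 1.19-fold lower in pdr3Δ GAL-PSD1 than in WT (-0.25 ± 0.08, adjusted p = 0.0314). That last call was lost under 9 of 17 alternatives, where the adjusted p reached 0.205, among them the fits without pdr3Δ GAL-PSD1 library 1, either GAL-PSD1 library or WT library 2.

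HXT1 (YHR094C, chromosome VIII, 290913 to 292625, minus strand), the low-affinity permease induced by high glucose, stayed low throughout. It had 13.9 and 14.5 CPM in pdr3Δ GAL-PSD1, 13.2 and 14.4 CPM in GAL-PSD1, and 12.3 and 12.7 CPM in WT. Its counts ran from 142 to 168. The change in GAL-PSD1 against WT was 0.14 ± 0.12 (95% interval -0.12 to 0.39, edgeR adjusted p = 0.343), and in pdr3Δ GAL-PSD1 against GAL-PSD1 it was 0.04 ± 0.11 (-0.21 to 0.30, adjusted p = 0.830). A rise as large as that of HXT3 lies outside the first interval. HXT1 and HXT3 are 81.7% identical in their coding bases, and 4.99% of the 50-base windows of HXT1 and 14.9% of those of HXT3 occur elsewhere in the R64 genome.

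The upstream regions of HXT1 and HXT3 are shown because both hold many matches to the Rgt1 motif, CGGANNA on either strand, while HXT3 passed the test in GAL-PSD1 against WT and HXT1 did not. In the 1000 bases before the start codon HXT1 has 8 matches and HXT3 has 9, and only 0.0337% and 0.0168% of 5941 genes have at least as many. At least 1 match stands before 66.8% of genes. The sequences are from the RefSeq R64 genome of the reference strain, not from W303, and run 5′ to 3′ on the gene's strand, with the Rgt1 matches in capitals. They cover chrVIII:292990-293109 (minus strand) for HXT1, 484 to 365 bases before its start codon, and chrIV:1164973-1165092 (minus strand) for HXT3, 432 to 313 bases before.
HXT1: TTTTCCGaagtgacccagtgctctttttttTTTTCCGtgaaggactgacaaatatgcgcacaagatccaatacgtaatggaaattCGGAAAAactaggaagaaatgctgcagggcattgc
HXT3: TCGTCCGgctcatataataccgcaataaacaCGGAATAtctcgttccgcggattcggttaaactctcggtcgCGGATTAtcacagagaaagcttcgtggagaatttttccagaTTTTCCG
A match is a description of the letters and not a measured site.

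The drug response element bound by Pdr1 and Pdr3 was searched as TCCGNGGA, on both strands of the same windows, which holds at least 1 match in 5.45% of genes. HXT3, SNF3 and MTH1 have 1 match each and the other 7 genes have none, HXT4 included. The stretches below show those 3 matches in capitals. They cover chrIV:1165015-1165074 (minus strand) for HXT3, chrIV:111238-111297 (plus strand) for SNF3 and chrIV:1016140-1016199 (minus strand) for MTH1, with the matches starting 388, 316 and 471 bases before the start codons.
HXT3: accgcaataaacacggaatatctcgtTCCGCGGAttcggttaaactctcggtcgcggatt
SNF3: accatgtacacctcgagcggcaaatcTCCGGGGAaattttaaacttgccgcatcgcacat
MTH1: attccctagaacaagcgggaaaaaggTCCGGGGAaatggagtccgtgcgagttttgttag
Of the 3, HXT3 was lower in pdr3Δ GAL-PSD1 than in GAL-PSD1, while SNF3 and MTH1 did not pass that test. For scale, the drug efflux pump gene PDR5 has 4 matches, and its level was 186.1 and 210.1 CPM in pdr3Δ GAL-PSD1, 3123 and 3591 CPM in GAL-PSD1, and 365.5 and 328.2 CPM in WT.

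**Figure D2:**
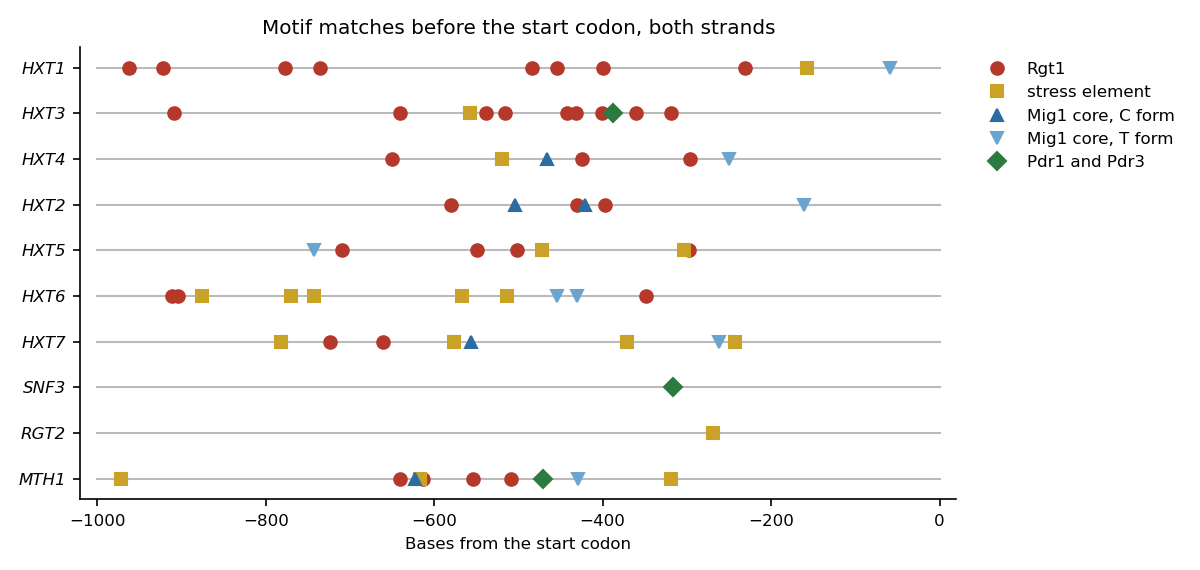
Positions of motif matches on both strands in the 1000 bases before each start codon (x axis, bases from the start codon at 0), 1 row per gene, with 1 marker per match. Rgt1 matches crowd the windows of HXT1 (8) and HXT3 (9), stress elements those of HXT6 (5) and HXT7 (4), and the Pdr1 and Pdr3 element appears once each before HXT3, SNF3 and MTH1.

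HXT2 (YMR011W, chromosome XIII, 288079 to 289704, plus strand), a permease of intermediate to high affinity induced by low glucose, was highest in WT. It had 96.9 and 125.1 CPM in pdr3Δ GAL-PSD1, 158.8 and 160.6 CPM in GAL-PSD1, and 224.7 and 288.5 CPM in WT. The 3 groups did not overlap, though libraries within pdr3Δ GAL-PSD1 and within WT lay well apart. HXT2 was 1.61-fold lower in GAL-PSD1 than in WT (-0.68 ± 0.12, edgeR adjusted p = 0.000964) and 2.31-fold lower in pdr3Δ GAL-PSD1 than in WT (-1.21 ± 0.13, adjusted p = 4.19e-05). In pdr3Δ GAL-PSD1 it was 1.44-fold lower than in GAL-PSD1 (-0.53 ± 0.13, adjusted p = 0.0194). The last call was lost with DESeq2, with FPKM values, and without pdr3Δ GAL-PSD1 library 1 or either GAL-PSD1 library (adjusted p up to 0.134). Before HXT2 stand 2 matches to the Mig1 core GCGGGG, a number that 0.741% of genes reach.

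HXT6 and HXT7 encode nearly identical high-affinity permeases, and their counts cannot be read as independent. HXT7 (YDR342C) lies at 1154216 to 1155928 and HXT6 (YDR343C) at 1159608 to 1161320, both on the minus strand of chromosome IV, 3679 bases apart. Their coding sequences of 1713 bases differ at 3 positions in R64, and the first 1631 bases are identical. Counted from the A of the start codon, the differences are C1632T, A1666G and C1677T, with the HXT7 base first and the HXT6 base last, and A1666G alone changes the encoded amino acid, in codon 556. The stretches of 60 bases that hold all 3 differences are shown, with the differing bases in capitals, from chrIV:1154252-1154311 for HXT7 and chrIV:1159644-1159703 for HXT6 (RefSeq R64, minus strand).
HXT7: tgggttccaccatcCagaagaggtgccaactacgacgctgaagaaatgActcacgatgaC
HXT6: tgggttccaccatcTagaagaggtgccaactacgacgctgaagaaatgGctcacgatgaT
Of all 50-base windows of either gene, 95.1% occur elsewhere in the genome, and of 100-base windows 94.9% do. The sources used here do not say how reads that match both genes were counted. W303 may differ from R64 at these bases.

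As deposited, HXT7 had 126.9 and 139.9 CPM in pdr3Δ GAL-PSD1, 158.0 and 147.9 CPM in GAL-PSD1, and 256.0 and 251.1 CPM in WT. HXT6 had 33.0 and 30.9 CPM in pdr3Δ GAL-PSD1, 33.3 and 27.8 CPM in GAL-PSD1, and 36.0 and 28.4 CPM in WT. HXT7 was highest in both WT libraries, and HXT6 overlapped across all 3 groups. HXT7 was 1.66-fold lower in GAL-PSD1 than in WT (-0.73 ± 0.06, edgeR adjusted p = 3.44e-06) and 1.90-fold lower in pdr3Δ GAL-PSD1 than in WT (-0.93 ± 0.06, adjusted p = 1.82e-06). HXT6 did not pass any of the 3 tests. Its change in GAL-PSD1 against WT was -0.07 ± 0.13 (95% interval -0.35 to 0.21, adjusted p = 0.676).

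The share of the pair's counts assigned to HXT6 differed between groups as HXT7 moved. HXT6 took 20.6% and 18.1% of the summed counts in pdr3Δ GAL-PSD1, 17.4% and 15.8% in GAL-PSD1, and 12.3% and 10.2% in WT. Wilson 95% intervals were 18.9% to 22.5% for pdr3Δ GAL-PSD1 library 1, the highest, and 9.19% to 11.2% for WT library 2, the lowest, and they cover counting error only. The sum of the pair does not depend on how reads were split, as long as each read was counted once. It came to 159.9 and 170.8 CPM in pdr3Δ GAL-PSD1, 191.3 and 175.7 CPM in GAL-PSD1, and 292.0 and 279.5 CPM in WT. The sum was 1.56-fold lower in GAL-PSD1 than in WT (-0.64 ± 0.06, edgeR adjusted p = 8.07e-06) and 1.73-fold lower in pdr3Δ GAL-PSD1 than in WT (-0.79 ± 0.06, adjusted p = 4.70e-06). So the fall against WT was present in the sum of the pair. As deposited, most of that sum was HXT7 in every library, so it is no separate check of HXT7.

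Between the 2 GAL-PSD1 strains, HXT7 alone was 1.15-fold lower in pdr3Δ GAL-PSD1 (-0.20 ± 0.06, edgeR adjusted p = 0.0425), whereas the sum of the pair did not pass (-0.15 ± 0.06, adjusted p = 0.0978). The HXT7 call was also lost with DESeq2, FPKM values or library totals alone, and without pdr3Δ GAL-PSD1 library 1 or either GAL-PSD1 library (adjusted p up to 0.252).

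HXT5 had the largest change of the 10 genes against WT. HXT5 (YHR096C, chromosome VIII, 294669 to 296447, minus strand) encodes a permease known from slow-growing and stressed cells. It had 163.6 and 183.1 CPM in pdr3Δ GAL-PSD1, 214.9 and 230.6 CPM in GAL-PSD1, and 25.6 and 60.3 CPM in WT. All 4 GAL-PSD1 libraries lay above both WT libraries, which were themselves far apart (294 and 739 counts). HXT5 was 5.15-fold higher in GAL-PSD1 than in WT (2.37 ± 0.25, edgeR adjusted p = 2.61e-05) and 4.01-fold higher in pdr3Δ GAL-PSD1 than in WT (2.00 ± 0.25, adjusted p = 0.000152). Without WT library 2 these folds were 8.71 and 6.78. Between pdr3Δ GAL-PSD1 and GAL-PSD1 the libraries did not overlap, yet the change of -0.36 ± 0.22 did not pass (95% interval -0.86 to 0.13, adjusted p = 0.288). It passed when either WT library or both were left out of the fit (adjusted p down to 0.00217). A gene's spread is estimated over all groups in the fit, and here most of it lay in WT.

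**Figure D3:**
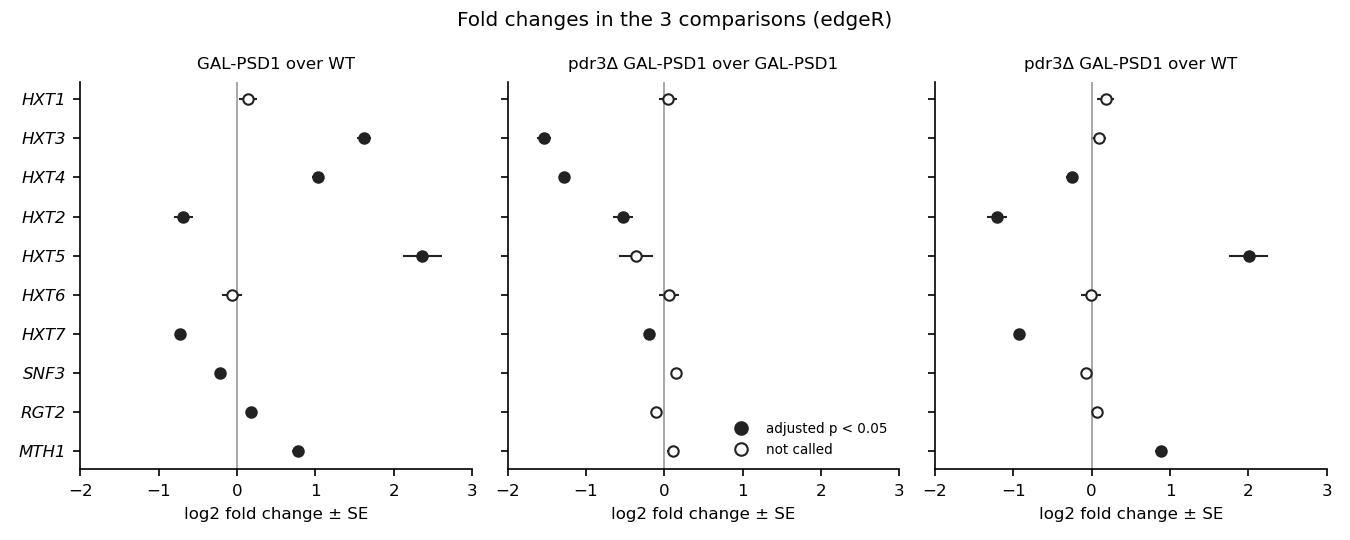
Log2 fold change (x axis) with its SE (bars) for each gene (rows) in the 3 comparisons (panels), filled where the edgeR adjusted p is under 0.05. HXT3 and HXT4 lie at 1.62 and 1.03 in GAL-PSD1 over WT and at -1.53 and -1.28 in pdr3Δ GAL-PSD1 over GAL-PSD1, while HXT5 and MTH1 stay positive in both comparisons with WT.

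The sensor genes moved little and in opposite directions. SNF3 (YDL194W, chromosome IV, 111580 to 114234, plus strand), the sensor of low glucose, had 79.4 and 79.7 CPM in pdr3Δ GAL-PSD1, 72.2 and 71.2 CPM in GAL-PSD1, and 86.5 and 80.8 CPM in WT. RGT2 (YDL138W, chromosome IV, 213351 to 215642, plus strand), the sensor of high glucose, had 61.3 and 62.0 CPM in pdr3Δ GAL-PSD1, 65.8 and 66.8 CPM in GAL-PSD1, and 58.0 and 59.5 CPM in WT. For both genes the pdr3Δ GAL-PSD1 libraries lay between those of the other groups. SNF3 was 1.17-fold lower in GAL-PSD1 than in WT (-0.22 ± 0.06, edgeR adjusted p = 0.00802), and RGT2 was 1.13-fold higher (0.17 ± 0.06, adjusted p = 0.0232). The SNF3 call was lost without GAL-PSD1 library 2 (adjusted p = 0.0549), and the RGT2 call was lost with DESeq2 and without either GAL-PSD1 library or WT library 1 (up to 0.162).

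Neither sensor gene passed in pdr3Δ GAL-PSD1 against GAL-PSD1 (SNF3 0.15 ± 0.06, edgeR adjusted p = 0.0959, and RGT2 -0.11 ± 0.06, adjusted p = 0.214) or against WT (-0.07, adjusted p = 0.350, and 0.07, adjusted p = 0.372). Per length, the FPKM ratio of SNF3 to RGT2 was 1.16 and 1.15 in pdr3Δ GAL-PSD1, 0.986 and 0.950 in GAL-PSD1, and 1.34 and 1.22 in WT. The ratio did not overlap between groups and was below 1 in GAL-PSD1 alone, where RGT2 had the higher level. This ratio was not tested.

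MTH1 (YDR277C, chromosome IV, 1014401 to 1015702, minus strand), the corepressor that acts with Rgt1, was higher in both GAL-PSD1 strains. It had 287.4 and 333.9 CPM in pdr3Δ GAL-PSD1, 283.5 and 291.7 CPM in GAL-PSD1, and 175.4 and 160.4 CPM in WT. The 2 GAL-PSD1 strains overlapped, and both lay above WT. MTH1 was 1.71-fold higher in GAL-PSD1 than in WT (0.78 ± 0.07, edgeR adjusted p = 1.15e-05) and 1.85-fold higher in pdr3Δ GAL-PSD1 than in WT (0.89 ± 0.07, adjusted p = 9.95e-06). Deleting PDR3 gave a change of 0.11 ± 0.07 that did not pass (95% interval -0.05 to 0.27, adjusted p = 0.313). Its paralog STD1 had 23.0 and 26.3 CPM in pdr3Δ GAL-PSD1, 31.8 and 28.5 CPM in GAL-PSD1, and 25.6 and 25.5 CPM in WT, and did not pass in GAL-PSD1 against WT (0.24 ± 0.10, adjusted p = 0.0653). The MTH1 to STD1 ratio in FPKM was 13.6 and 13.8 in pdr3Δ GAL-PSD1, 9.75 and 11.2 in GAL-PSD1, and 7.49 and 6.83 in WT.

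Levels of different genes were compared in FPKM, the deposited values scaled for length and depth. The ratio of FPKM to CPM per kilobase differed between the genes (0.98 to 1.39), so their order and overlaps in FPKM carry that ratio. In WT, HXT2 and HXT7 were the leading members, with 202 ± 38.3 and 193 ± 0.212 FPKM (SD, n = 2 each), and their libraries overlapped. MTH1 followed with 134 ± 9.83 FPKM and HXT4 with 39.7 ± 3.75 FPKM. From SNF3 (32.5 FPKM) through HXT5 (27.8), RGT2 (25.5), HXT6 (24.5) and HXT3 (23.0), each gene overlapped the next in order, so these 5 are not ranked. HXT1 was lowest, with 8.94 ± 0.228 FPKM.

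The order differed in the GAL-PSD1 strains. In GAL-PSD1, MTH1 led with 231 ± 5.02 FPKM, before HXT5 (143 ± 6.44), HXT2 (124 ± 1.06), HXT7 (115 ± 6.86), HXT4 (79.8 ± 0.0636) and HXT3 (70.2 ± 3.39). RGT2, SNF3, HXT6 and HXT1 lay below 30 FPKM, and no neighbours in this order overlapped. In pdr3Δ GAL-PSD1, MTH1 again led with 245 ± 24.6 FPKM. HXT5 (112 ± 9.55), HXT7 (103 ± 7.71) and HXT2 (87.4 ± 16.2) overlapped in that order, and HXT4 (33.6 ± 2.97), SNF3 (30.7 ± 0.127) and RGT2 (26.7 ± 0.198) came after them. RGT2, HXT3 (24.8 ± 3.30) and HXT6 (24.6 ± 0.955) overlapped, and HXT1 (10.2 ± 0.293) was again lowest.

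The make-up of the summed HXT1 to HXT7 message differed more than its size. The summed FPKM of the 7 permease genes was 368 and 423 in pdr3Δ GAL-PSD1, 571 and 560 in GAL-PSD1, and 480 and 559 in WT. HXT2 and HXT7 together made up 47.1% and 48.9% of it in pdr3Δ GAL-PSD1, 42.9% and 41.7% in GAL-PSD1, and 76.7% and 75.6% in WT. HXT5 made up 28.7% and 28.2% in pdr3Δ GAL-PSD1, 24.3% and 26.4% in GAL-PSD1, and 3.42% and 7.01% in WT. HXT3 and HXT4 together made up 14.6% and 14.8% in pdr3Δ GAL-PSD1, 26.7% and 26.4% in GAL-PSD1, and 12.4% and 11.8% in WT. Thus the pool was mostly HXT2 and HXT7 in WT, gained an HXT5 share in both GAL-PSD1 strains, and held its largest HXT3 and HXT4 share in GAL-PSD1. These shares were not tested, and they carry each gene's ratio of FPKM to CPM per kilobase. The HXT6 and HXT7 parts are as the deposited table splits them.

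**Figure D4:**
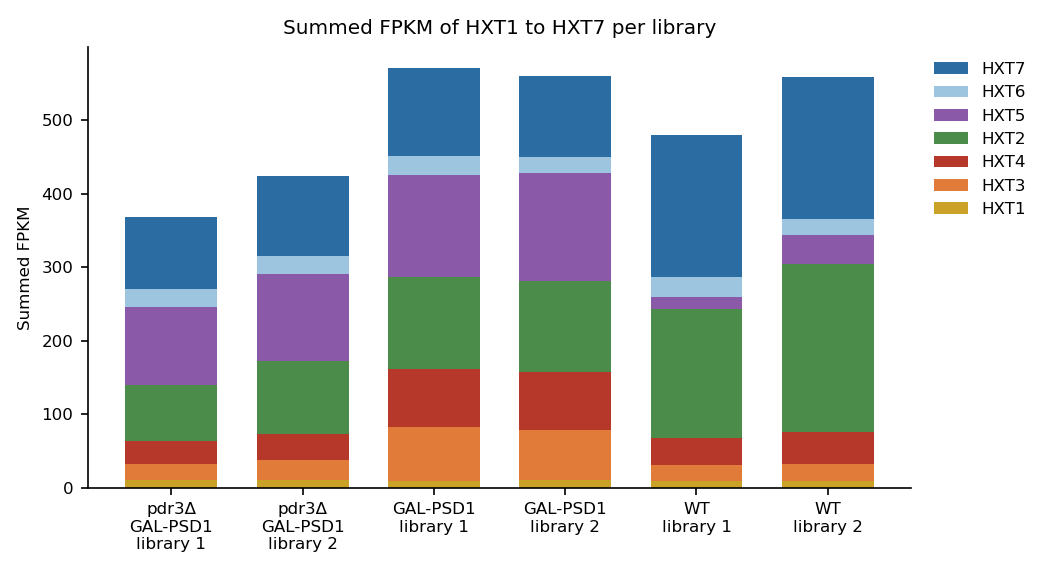
Summed FPKM of HXT1 to HXT7 (y axis from 0) in each of the 6 libraries, stacked by gene. The WT bars are mostly HXT7 and HXT2, the HXT5 band is wide in all 4 GAL-PSD1 libraries, and the HXT3 and HXT4 bands are widest in GAL-PSD1 (26.7% and 26.4% of the sum).

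Of 11 other hexose permease genes, 9 were tested. In GAL-PSD1 against WT 4 were higher (GAL2, HXT9, HXT11 and HXT12) and none was lower, where 27.9% of all loci were higher, with a median log2 change of 0.08 against 0.01 over all loci. GAL2 was the only 1 of these 4 called with DESeq2, which gave the other 3 no adjusted p, and with a minimum of 50 counts, which left 2 of the 9 genes. GAL2, the galactose permease, which also carries glucose, exceeded the summed HXT1 to HXT7 level in the GAL-PSD1 strains. It had 4366 and 4289 FPKM in pdr3Δ GAL-PSD1, 3094 and 3009 FPKM in GAL-PSD1, and 20.5 and 8.93 FPKM in WT. It was 209.7-fold higher in GAL-PSD1 than in WT (log2 7.71 ± 0.25, edgeR adjusted p = 9.50e-09), and 343.5-fold without WT library 1. In pdr3Δ GAL-PSD1 against GAL-PSD1 it did not pass (0.49 ± 0.18, adjusted p = 0.0745), but it did with limma-voom, with the replicate block and without either WT library.

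HXT9 and HXT11 encode permeases known as targets of Pdr1 and Pdr3. Each has 2 matches to TCCGNGGA in its upstream window, a number that 0.387% of genes reach. Their counts were low. HXT9 had 31 and 32 counts in pdr3Δ GAL-PSD1, 40 and 37 in GAL-PSD1, and 16 and 13 in WT. HXT11 had 35 and 37 counts in pdr3Δ GAL-PSD1, 39 and 43 in GAL-PSD1, and 16 and 16 in WT. Both were higher in GAL-PSD1 than in WT (HXT9 1.54 ± 0.26, edgeR adjusted p = 0.000614, and HXT11 1.49 ± 0.26, adjusted p = 0.000698). Neither passed in pdr3Δ GAL-PSD1 against GAL-PSD1 (-0.41 ± 0.22, edgeR adjusted p = 0.216, and -0.31 ± 0.21, adjusted p = 0.344). All 9 tested permease genes missed the threshold there, in a comparison where 20.9% of all loci were called. GAL2 among them passed under some alternatives, as given above. The 2 genes are 97.2% identical in their coding bases, so reads may be split between them.

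Of 10 other listed genes on the route from the sensors to Rgt1, 1 was higher and 3 were lower in GAL-PSD1 against WT, where 27.9% of all loci were called in each direction, and 6 did not pass. Their median log2 change was -0.03. The higher gene was SKP1 (0.16 ± 0.05, edgeR adjusted p = 0.0237). Its call held in 11 of 17 alternatives and was lost with DESeq2 and with FPKM values, among others. The 3 lower genes were YCK2, a casein kinase I gene (-0.33 ± 0.05, edgeR adjusted p = 0.000204), and CYC8 (-0.41 ± 0.08, adjusted p = 0.00107) and TUP1 (-0.26 ± 0.06, adjusted p = 0.00623), which encode the general corepressor. The TUP1 call was lost without GAL-PSD1 library 1 (adjusted p = 0.0710), which left 2 called genes, both lower. RGT1 itself had 78.0 and 87.4 CPM in pdr3Δ GAL-PSD1, 76.1 and 76.5 CPM in GAL-PSD1, and 83.7 and 80.8 CPM in WT, and did not pass in GAL-PSD1 against WT (-0.11 ± 0.07, adjusted p = 0.189). In pdr3Δ GAL-PSD1 against GAL-PSD1, 1 of the 10 passed, where 20.9% of all loci were called. It was YCK2 (0.18 ± 0.05, edgeR adjusted p = 0.0260). That call was lost with DESeq2, with FPKM values, and without pdr3Δ GAL-PSD1 library 2 or either GAL-PSD1 library.

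Of 14 genes of Snf1 and Mig1 glucose repression, 3 were higher and 3 lower in GAL-PSD1 against WT, where 55.8% of all loci were called. With PDR3 deleted, 1 was higher and 4 were lower than in GAL-PSD1, where 20.9% of all loci were called. Fewer of the 14, and fewer of all loci, passed when a library of either strain was left out, the fewest without GAL-PSD1 library 2. MIG2, a repressor gene related to MIG1 and itself a target of Rgt1, moved in the same directions as HXT3 and HXT4. It had 25.6 and 23.0 CPM in pdr3Δ GAL-PSD1, 43.3 and 43.8 CPM in GAL-PSD1, and 22.2 and 20.2 CPM in WT. It was 2.05-fold higher in GAL-PSD1 than in WT (1.04 ± 0.09, edgeR adjusted p = 6.69e-06) and 1.79-fold lower in pdr3Δ GAL-PSD1 than in GAL-PSD1 (-0.84 ± 0.09, adjusted p = 0.000411). Its upstream window has 7 Rgt1 matches, a number that 0.118% of genes reach, and 2 matches to TCCGNGGA. MIG1 did not pass in GAL-PSD1 against WT (0.15, adjusted p = 0.0892), although it did in 3 of 17 alternatives, those that left out either or both pdr3Δ GAL-PSD1 libraries. SUC2, the invertase gene, which is a textbook target of Mig1, ran from 320.7 to 456.9 CPM over the 6 libraries and did not pass in GAL-PSD1 against WT (0.09 ± 0.13, adjusted p = 0.589).

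All 4 hexose kinase genes passed in GAL-PSD1 against WT, 3 higher and 1 lower, in a comparison where 55.8% of all loci passed. HXK1, counted in 1 locus with YFR052C-A, was 2.86-fold higher (1.52 ± 0.06, edgeR adjusted p = 4.47e-08), and its locus had 1855 and 1850 CPM in pdr3Δ GAL-PSD1, 2341 and 2435 CPM in GAL-PSD1, and 877.2 and 790.3 CPM in WT. The glucokinase locus of GLK1 and YCL042W (0.58 ± 0.06, adjusted p = 2.81e-05) and EMI2, a GLK1 paralog (0.70 ± 0.04, adjusted p = 7.37e-07), were higher too. HXK2, the main hexokinase in glucose, was lower, with 1410 and 1389 CPM in pdr3Δ GAL-PSD1, 1243 and 1148 CPM in GAL-PSD1, and 1726 and 1795 CPM in WT (-0.56 ± 0.06, adjusted p = 1.73e-05).

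Of 11 genes of Gpr1 and Ras signalling to protein kinase A, 7 were higher in GAL-PSD1 against WT and none was lower, where 27.9% of all loci were higher, and the median log2 change was 0.21. Of 6 genes of permease ubiquitination and endocytosis, 3 were higher and 2 lower, where 27.9% of all loci were called in each direction. Fewer of the 6 were called with DESeq2 or FPKM values (4 each), and without either GAL-PSD1 library or WT library 1. The arrestin gene ROG3 (0.47, edgeR adjusted p = 0.00126) was higher and the ubiquitin ligase adaptor gene BUL2 (-0.40, adjusted p = 0.000652) lower. Of 4 tested genes of di- and trisaccharide use, 1 was lower, where 27.9% of all loci were lower. It was the maltose permease gene MAL31 (-0.30, edgeR adjusted p = 0.00123), and MAL11 passed as well without GAL-PSD1 library 2. In pdr3Δ GAL-PSD1 against GAL-PSD1 these 3 lists held 2 called genes of 11, 0 of 6 and 1 of 4, and no called gene without GAL-PSD1 library 2.

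**Figure D5:**
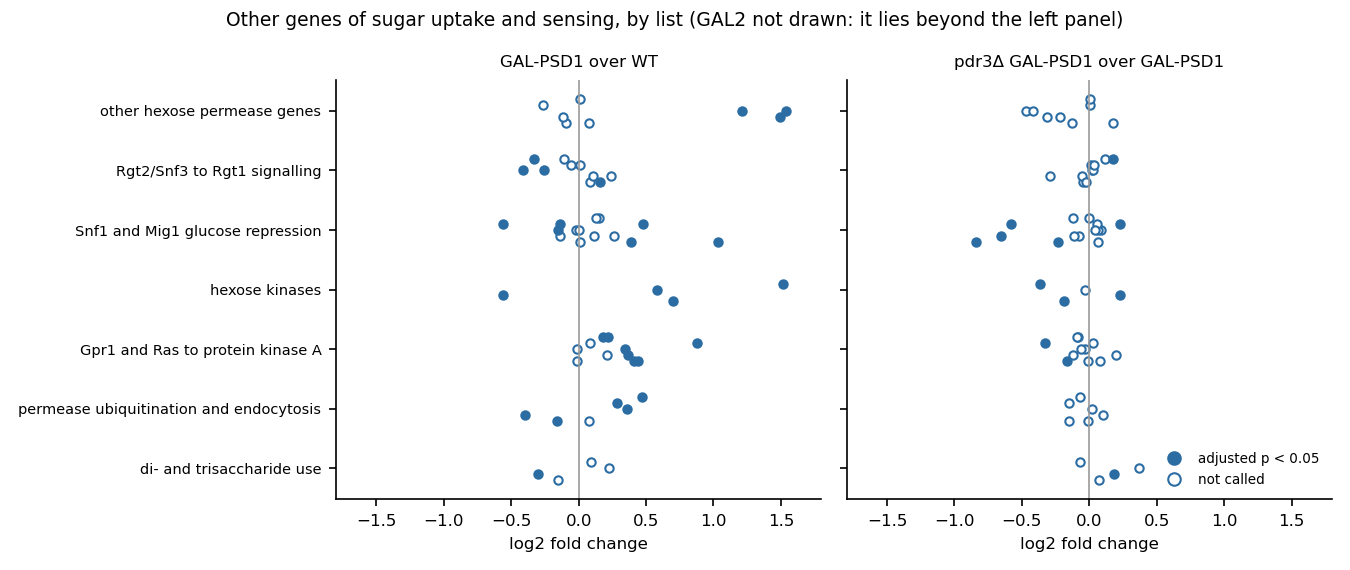
Log2 fold changes (x axis) of the other genes of sugar uptake and sensing, 1 point per gene, grouped by list (rows), in GAL-PSD1 over WT (left) and pdr3Δ GAL-PSD1 over GAL-PSD1 (right), filled where the edgeR adjusted p is under 0.05. GAL2 is not drawn, since it lies far beyond the left panel at 7.71 (0.49 on the right), and the points on the right lie closer to 0 than those on the left for the hexose kinases, HXK1 being at 1.52 and -0.37.

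Across the 6 libraries, the loci nearest to HXT3 in pattern were ULI1, ICT1 and LAF1, by the root mean square distance of centred log2 CPM (0.08, 0.15 and 0.16), among 5783 loci with a mean log2 CPM of at least 2. ICT1, an acyltransferase gene, had 54.8 and 51.9 CPM in pdr3Δ GAL-PSD1, 129.6 and 135.0 CPM in GAL-PSD1, and 49.8 and 49.1 CPM in WT. These loci were chosen by their likeness to HXT3, so they too were high in GAL-PSD1 and near the WT level in pdr3Δ GAL-PSD1. The loci nearest to HXT5 were YKL107W, YNL195C and MSC1 (0.22, 0.24 and 0.26), and MSC1 had 1014 and 1259 CPM in pdr3Δ GAL-PSD1, 1224 and 1299 CPM in GAL-PSD1, and 227.4 and 303.4 CPM in WT. The likeness rests on 6 libraries in 3 groups, so any locus with the same group order can come close.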

How the data were processed

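RNA was column-purified and made into TruSeq libraries, per the labels' protocols. The submitters' processing notes name the sacCer3 (R64) build and, with no role for each, Cuffdiff 2.2.0, Cufflinks 2.2.0, the aligners Bowtie2 2.1.0 and TopHat2 2.0.9, and SAMtools 0.1.18. The sources used here do not give the counting tool, its strand setting or its treatment of reads matching several genes. The authors deposited whole-number counts per locus and FPKM values for the same loci, per the file headers and values. Deposited transcript models gave positions, which for all 10 genes equal those of the R64 annotation and hold no overlapping model.

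Loci were kept by edgeR's filterByExpr on the 3 groups. All 6 libraries then entered 1 quasi-likelihood fit in edgeR 4.0.16 under R 4.3.3, scaled by TMM, whose factors ran from 0.99 to 1.012, with 3 residual degrees of freedom. P-values were adjusted over 6171 loci (Benjamini-Hochberg). CPM are counts scaled to the TMM-adjusted library size. Each SE was taken as the size of the log2 fold change over the square root of its F statistic. Library totals of 10220872 to 12315448 put 142 to 3832 counts behind each value of the 10 genes. The ratio of FPKM to CPM per kilobase was 0.98 to 1.39 across the 10 genes and nearly constant per gene, so the order of FPKM levels between genes also carries that ratio.

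Upstream sequence and motif matches were read from the R64 genome with Biopython 1.88, in 1000 bases before each start codon. Alternatives were DESeq2 1.42.0, RLE factors, limma 3.58.1 as voom on counts and as trend on log2 FPKM with pseudocounts of 1 and 0.1, library totals, sizes without PSD1, GAL, ribosomal RNA and mitochondrial genes, no filter, at least 50 counts in 2 libraries, HXT6 and HXT7 summed, a replicate block, only the 2 groups compared, and each library left out. The members and gene lists were chosen with earlier results of these data known. The text names the 10 genes throughout, up to 4 listed genes per list by smallest p in GAL-PSD1 against WT, HXT9, HXT11, GAL2, RGT1, STD1, MIG1, HXK2 and SUC2, PSD1 and PDR3 as checks, and the 3 loci nearest in pattern to the 2 members with the largest change. GAL1 and PDR5 were named after their values were seen.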

Additional observations from a re-analysis of the deposited data

How the results depend on the processing

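Of 534 values for the 10 genes under 18 alternatives, where the sum of HXT6 and HXT7 gave no value for either gene, 504 kept their side of the threshold, 27 lost the call, 3 gained one and no called value changed sign. Of 17 called results, 12 kept their call throughout. HXT3 ran from 1.57 to 1.66 and HXT5 from 1.88 to 3.12 (log2) in GAL-PSD1 against WT. In pdr3Δ GAL-PSD1 against GAL-PSD1, HXT3 ran from -1.68 to -1.40 and HXT4 from -1.36 to -1.19. In that comparison, 4 of the 10 genes were called, but 2 with DESeq2, log2(FPKM + 1) or log2(FPKM + 0.1), and 2 to 5 with 1 library left out. Over all loci, 1291 were called there, against 814 with DESeq2, 825 and 829 with those FPKM values, and 233 to 1533 with 1 library left out. The lowest came without GAL-PSD1 library 2, and the cause was not tested. SUC2 in pdr3Δ GAL-PSD1 against WT (0.02, not called) reversed to -0.26 without pdr3Δ GAL-PSD1 library 1 (edgeR adjusted p = 0.0294) and was 0.25 without library 2 (adjusted p = 0.0285). Deviations of same-numbered libraries correlated at -0.02, 0.19 and 0.04 across loci. Such values cannot settle whether same-numbered libraries were handled together, and the labels state no pairing. With the replicate block 8, 4 and 5 of the 10 genes were called in the 3 comparisons, as without it. HXT9 and HXT11 have too few counts for the minimum of 50, and DESeq2 gave them no adjusted p in GAL-PSD1 against WT. The chi-square between replicates was 2.99 to 7.07 per degree of freedom, where counting error alone gives about 1.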
